A study of Homo sapiens with 8 samples.

Results

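The 9 genes described here encode transcription factors that set basal identity or drive differentiation in stratified epithelium: TP63, GRHL1, GRHL2, GRHL3, KLF4, KLF5, OVOL1, ZNF750 and PRDM1. They were taken by symbol from the deposited count table, which held 20294 genes, and all 9 were found and passed the filter on low counts. RNA was sequenced from HSC-5, a human cutaneous squamous cell carcinoma line that stably carried Cas9. The 2 control libraries came from cells with the empty vector, 3 libraries from cells with the guide RNA sgEZH2-1 and 3 from cells with sgEZH2-2. Both guides direct Cas9 to EZH2, the methyltransferase subunit of Polycomb repressive complex 2 (PRC2), and G418 removed cells without the guide vector, per the design text. The same text reports that the authors left out a further control that did not group with the rest, which can make the remaining controls look more alike than they are. Whether replicates were cultured separately is not stated, and the p-values then rest on a spread that may be only technical.

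In the basal layer of the epidermis, p63, the product of TP63, keeps keratinocytes in a progenitor state and turns on basal keratins and matrix adhesion genes. As cells leave that layer, p63 gives way to factors such as KLF4, GRHL3, OVOL1 and ZNF750, which switch on the genes of the cornified barrier. PRC2 places the repressive mark H3K27me3 and is known to hold differentiation genes back in basal progenitors of the skin.

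Promoter sequences of the 4 called factors that RefSeq gives (GRCh38.p14) are shown because the data turn on these genes. CpG dinucleotides, which are dense at many Polycomb-bound promoters, are in capitals. Each line reads 5′ to 3′ on the strand of the gene, covers bases before the listed start and leaves out any stretch that GENCODE release 29 places in an exon of that gene.
TP63, chr3:189631139-189631388, plus strand: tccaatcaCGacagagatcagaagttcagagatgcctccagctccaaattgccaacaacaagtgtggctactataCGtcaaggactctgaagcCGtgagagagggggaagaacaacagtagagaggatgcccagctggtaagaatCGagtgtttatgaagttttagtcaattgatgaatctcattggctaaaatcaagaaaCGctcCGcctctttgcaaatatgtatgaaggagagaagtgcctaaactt
GRHL3, chr1:24319107-24319321, plus strand: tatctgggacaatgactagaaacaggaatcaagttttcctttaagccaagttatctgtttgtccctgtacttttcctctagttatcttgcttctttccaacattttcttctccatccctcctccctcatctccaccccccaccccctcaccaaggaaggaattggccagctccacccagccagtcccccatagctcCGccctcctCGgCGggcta
KLF4, chr9:107489770-107490019, minus strand: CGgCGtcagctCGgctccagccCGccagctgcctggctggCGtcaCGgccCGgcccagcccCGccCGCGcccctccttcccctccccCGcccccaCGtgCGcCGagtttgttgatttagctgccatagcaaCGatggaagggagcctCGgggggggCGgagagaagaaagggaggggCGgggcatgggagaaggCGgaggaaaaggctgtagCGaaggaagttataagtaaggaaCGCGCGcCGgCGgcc
GRHL1, chr2:9951443-9951692, plus strand: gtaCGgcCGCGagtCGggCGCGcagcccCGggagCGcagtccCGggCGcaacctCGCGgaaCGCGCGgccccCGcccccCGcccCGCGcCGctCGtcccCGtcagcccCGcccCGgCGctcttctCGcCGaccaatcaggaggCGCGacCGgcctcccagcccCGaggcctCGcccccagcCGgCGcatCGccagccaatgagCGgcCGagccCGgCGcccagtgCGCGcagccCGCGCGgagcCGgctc

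The 250 bases before the start held 6 CpG in TP63, 3 in this GRHL3 promoter, 25 in KLF4 and 45 in GRHL1, while the median over 35116 RefSeq promoters was 11. The TP63 stretch lies before the 5′ end of the gene. TP63 has 8 annotated start positions, the others are not shown, and which start these cells use was not tested. The 4 called factors shown thus ranged from CpG-poor to CpG-rich, with 22.9% of promoters holding fewer CpG than GRHL3 and 99.4% fewer than GRHL1. The second listed start of GRHL3 had 10 CpG. RefSeq promoters matched 6 of the 9 factors, and the others with an entry were KLF5 (3 and 27 CpG) and PRDM1 (11 and 7 CpG). These counts and the motif matches below cover all 250 bases, also those in exons of the gene. Before the second KLF5 start, 213 of the bases lie in its exons, and the 37 outside hold 0 CpG. The grainyhead motif AACCGGTT, searched on both strands, was in none of the promoters of these factors and in 0.117% of all promoters. The short KLF motif CACCC, also searched on both strands, was in 54.7% of all promoters. It occurred 3 times before the first start of GRHL3 and 1 time before the second, 1 and 2 times before the starts of KLF5, and 0 and 3 times before those of PRDM1. It occurred 0 times before TP63, KLF4 and GRHL1. A match is a description of the letters and not evidence of binding.

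Library totals ran from 12607952 to 15468597 counts, and 13124 genes were tested. Replicate libraries differed by more than counting noise in every pair (chi-square per degree of freedom 2.16 to 9.85). The EZH2 transcript was at 64.2% of control with sgEZH2-1 and 82.5% with sgEZH2-2. In edgeR the first was called (log2 fold change -0.64, adjusted p = 0.000529) and the second was not (-0.28, adjusted p = 0.0699). These RNA counts do not give the level of EZH2 protein. The EZH2 transcript was lower with sgEZH2-1 than with sgEZH2-2 (log2 fold change -0.36, adjusted p = 0.00844 in edgeR's quasi-likelihood test), so the guides differed in this check too. All 8 keratinocyte markers were detected, and their summed level was 2929 to 3101 CPM (counts relative to the scaled total of each library) in the controls, 2643 to 3181 with sgEZH2-1 and 2491 to 2599 with sgEZH2-2. By the edgeR calls, 2 of the 8 rose and 0 fell with sgEZH2-1 (11.3% and 9.51% of all genes). With sgEZH2-2, 0 rose and 4 fell (6.18% and 2.50% of all genes). Of the 4 simple-epithelial keratins, KRT8 and KRT18 rose and KRT19 fell with sgEZH2-1. The sum of the 4 was 2226 to 2590 CPM in control libraries, 2528 to 2674 with sgEZH2-2 and 3020 to 3425 with sgEZH2-1. The 9 fibroblast markers summed to 6.13 to 7.24 CPM in control libraries, 5.02 to 8.96 with sgEZH2-1 and 11.0 to 14.1 with sgEZH2-2, with COL1A2 at 0 throughout. The 7 melanocyte markers summed to 27.9 to 33.1 CPM over all libraries, with TYR, DCT and SOX10 at 0. The 8 leukocyte markers summed to 11.6 to 18.3 CPM, with CD3E and MS4A1 at 0. The 6 endothelial markers, with KDR at 0, summed to 177 to 184 CPM in control libraries, 76.6 to 81.7 with sgEZH2-1 and 143 to 160 with sgEZH2-2, and the fall was called for CDH5. The part of these markers in the results below was not tested. In bulk RNA, fewer cells of a type and less RNA per cell cannot be told apart.

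With sgEZH2-1, TP63 fell while GRHL3, KLF4, OVOL1 and GRHL1 rose. Of the 9 factors, 5 were called against control in edgeR (4 higher, 1 lower). Over all genes tested the share called was 20.8%, with 11.3% higher and 9.51% lower. At an unadjusted p under 0.05 there were 8 of the 9, against 34.4% of all genes. All libraries with sgEZH2-1 lay above both controls for 6 factors (23.7% of all genes) and below both for 2 (24.2%). With sgEZH2-2 edgeR called 0 of the 9, where 8.68% of all genes were called (6.18% higher, 2.50% lower). At an unadjusted p under 0.05 the sgEZH2-2 comparison held 4 of the 9, TP63, GRHL2, KLF4 and PRDM1, and 22.6% of all genes. Libraries with sgEZH2-2 lay above both controls for 2 factors (19.3% of all genes) and below both for 2 (20.5%). PRDM1 is among the factors above the controls for each guide, and it passed the filter only through guide libraries. DESeq2 and limma-voom also called none of the 9 with sgEZH2-2. The median log2 fold change of the 9 factors was 0.38 with sgEZH2-1 and 0.08 with sgEZH2-2, against -0.0094 and 0.00091 over all genes. The 2 comparisons share their controls.

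**Figure D1:**
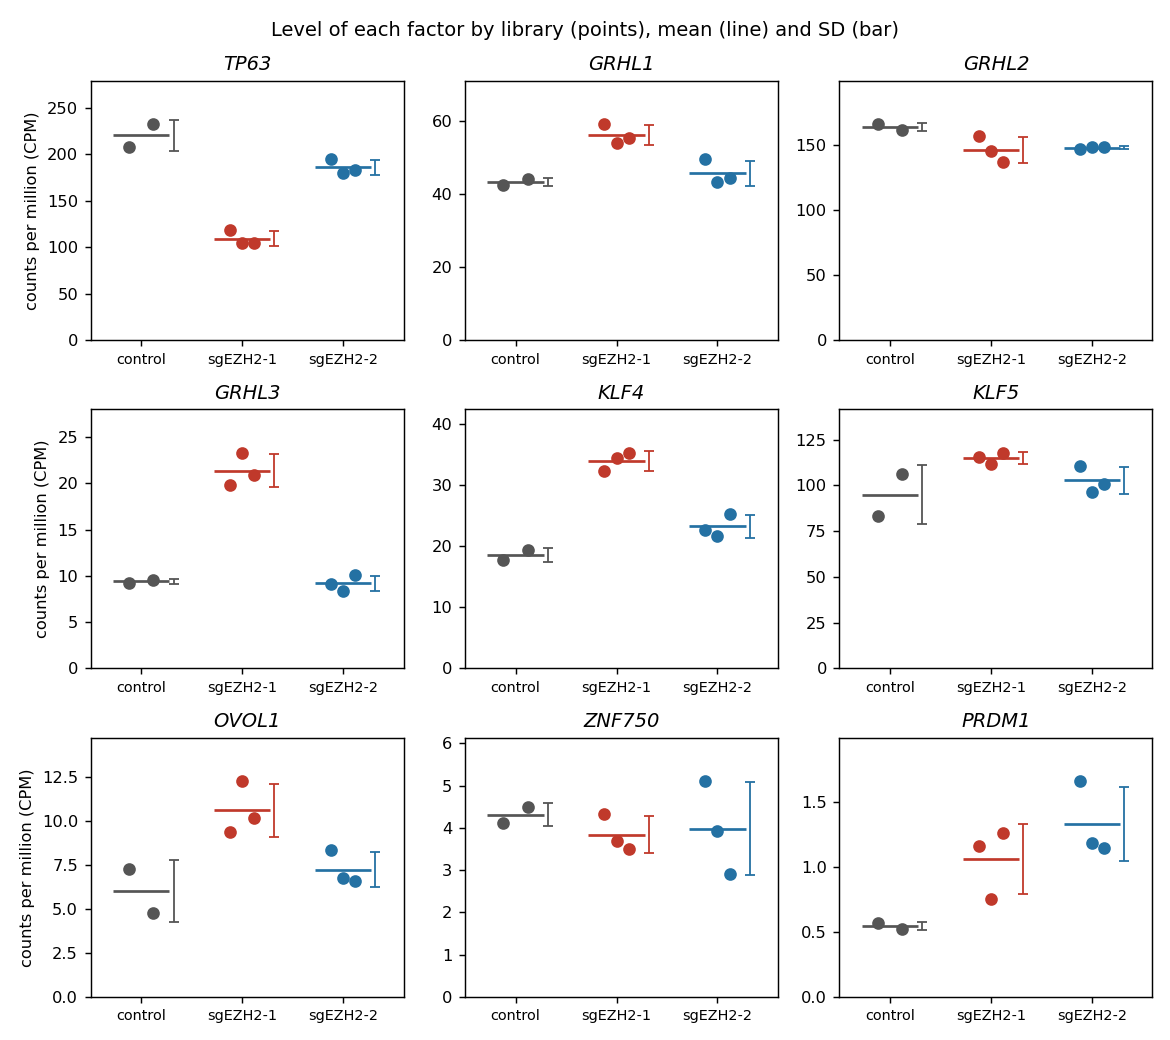
Level of each of the 9 factors in CPM (vertical axes from 0) in the 2 control, 3 sgEZH2-1 and 3 sgEZH2-2 libraries: points are libraries, lines group means and bars the SD. TP63 is at 104 to 119 with sgEZH2-1 and at 180 or more elsewhere, and GRHL3 is at 19.8 to 23.3 with sgEZH2-1 and at 10.1 or less elsewhere.

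TP63 lies on chromosome 3 (189631416 to 189897279, plus strand, GRCh38), and its count sums 14 annotated transcripts from 8 start positions, so the full-length and the amino-truncated forms of p63 are not told apart. It stood at 208 and 233 CPM in the controls, at 119, 105 and 104 with sgEZH2-1, and at 195, 180 and 183 with sgEZH2-2. Every sgEZH2-1 library lay far below every other library, and the sgEZH2-2 libraries lay between them and the controls without overlap. The mean with sgEZH2-1 was 49.5% of control (log2 fold change -1.01, SE 0.07, adjusted p = 1.27e-05). With sgEZH2-2 it was 84.4% of control (log2 fold change -0.24, 95% interval -0.41 to -0.08), which was not called (adjusted p = 0.0684). That value passed the threshold without the first sgEZH2-1 library, which enters the shared estimate of spread (adjusted p = 0.0313). The direct comparison of the guides gave -0.77 for TP63 (SE 0.07, adjusted p = 7.05e-05), so the fall was larger with sgEZH2-1.

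KLF5, a zinc-finger factor of dividing basal epithelial cells, did not fall with TP63. Its level was 83.4 and 106 CPM in the controls, 115, 112 and 118 with sgEZH2-1, and 111, 96.6 and 101 with sgEZH2-2. The controls were far apart, and the sgEZH2-1 libraries lay just above the higher of them. The log2 fold change with sgEZH2-1 was 0.28 (SE 0.10, adjusted p = 0.0678), which was not called. KLF5 passed at 0.46 (adjusted p = 0.00890) without the second control, and DESeq2 on all libraries also called it (adjusted p = 0.0482). The guides did not differ by the test (0.16, 95% interval -0.03 to 0.35, adjusted p = 0.197).

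The grainyhead-like genes bind the same type of site and are known for keeping epithelial junctions and forming the skin barrier. They did not move alike. GRHL3 (chromosome 1, 24319322 to 24364482), the factor most tied to barrier formation, was at 9.23 and 9.59 CPM in the controls. It was at 19.8, 23.3 and 20.9 with sgEZH2-1 and at 9.11, 8.42 and 10.1 with sgEZH2-2. The sgEZH2-1 libraries stood above all others without overlap, and the sgEZH2-2 libraries overlapped the controls. GRHL3 rose by 1.18 on the log2 scale with sgEZH2-1 (SE 0.12, adjusted p = 8.55e-05). With sgEZH2-2 its log2 fold change was -0.03 (95% interval -0.30 to 0.24, adjusted p = 0.914). The difference between the guides was 1.21 (SE 0.10, adjusted p = 5.60e-05), the largest of the 9 factors. STPG1, which overlaps GRHL3 on the opposite strand, shares no exon bases with it and was at -0.20 with sgEZH2-1 (adjusted p = 0.297).

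GRHL1 (chromosome 2, 9951693 to 10002277), known to act on desmosomal cadherin genes, was at 42.4 and 44.0 CPM in the controls. With sgEZH2-1 it was at 59.0, 53.9 and 55.2, above all other libraries, and with sgEZH2-2 at 49.4, 43.1 and 44.2, overlapping the controls. GRHL1 rose by 0.38 on the log2 scale with sgEZH2-1 (SE 0.08, adjusted p = 0.00764) and was at 0.08 with sgEZH2-2 (adjusted p = 0.616). The guides differed by 0.30 (adjusted p = 0.0143). The rise lost its call without the first control (0.35, adjusted p = 0.0631). The difference between the guides lost its call without the second or the third sgEZH2-2 library (adjusted p = 0.0676 and 0.0664).

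GRHL2 (chromosome 8, 101492432 to 101669726), the family member that maintains epithelial adhesion genes, was the abundant one. It was at 166 and 161 CPM in the controls, 156, 145 and 137 with sgEZH2-1, and 146, 148 and 148 with sgEZH2-2. All 6 guide libraries were below both controls, and the 2 guides overlapped. The log2 fold change was -0.16 with sgEZH2-1 (95% interval -0.30 to -0.03, adjusted p = 0.0857) and -0.15 with sgEZH2-2 (-0.28 to -0.01, adjusted p = 0.183). GRHL2 passed with sgEZH2-1 only when the first sgEZH2-1 library was left out (-0.21, adjusted p = 0.0250). The difference between the guides was -0.02 (95% interval -0.14 to 0.11).

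The make-up of the family shifted with sgEZH2-1. Levels were set per length here, as RPKM (CPM per kilobase of annotated exons). GRHL3 made up 6.69% and 7.04% of the summed RPKM of the 3 genes in the controls, 13.2%, 16.2% and 15.2% with sgEZH2-1, and 7.07%, 6.67% and 7.84% with sgEZH2-2. The share of GRHL2 was 78.1% and 77.0% in the controls, 67.4%, 65.4% and 64.8% with sgEZH2-1, and 73.9%, 76.4% and 75.1% with sgEZH2-2. GRHL2 remained the main member of the family in all 8 libraries.

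**Figure D2:**
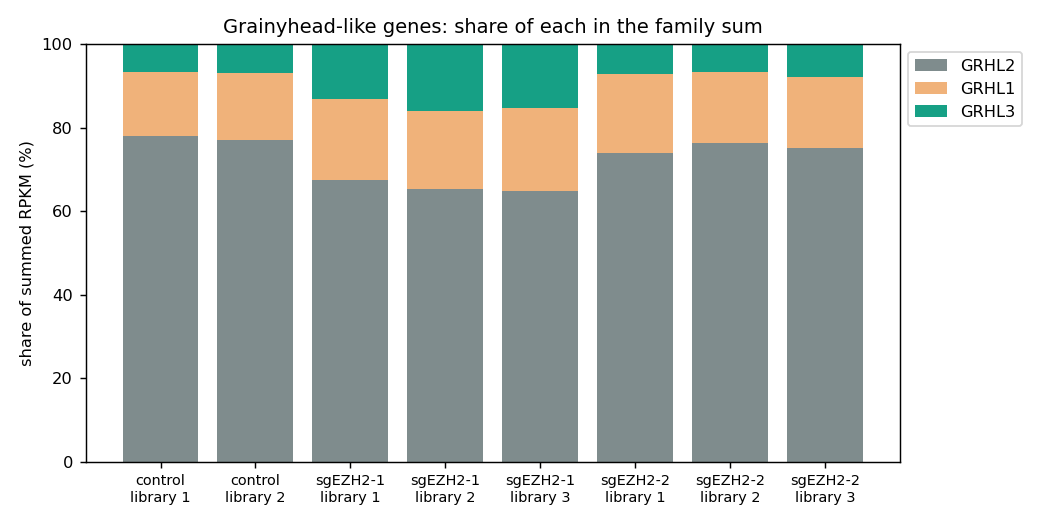
Share of GRHL1, GRHL2 and GRHL3 in their summed RPKM (vertical axis, percent) in each of the 8 libraries. The GRHL3 share is 13.2% to 16.2% in the sgEZH2-1 libraries and 6.67% to 7.84% in the others.

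KLF4 (chromosome 9, 107484852 to 107490482, minus strand), a zinc-finger factor needed for the skin barrier, was at 17.7 and 19.3 CPM in the controls. It was at 32.2, 34.3 and 35.3 with sgEZH2-1 and at 22.7, 21.7 and 25.3 with sgEZH2-2. The 3 groups did not overlap, with sgEZH2-2 between the others. KLF4 rose by 0.88 on the log2 scale with sgEZH2-1 (SE 0.09, adjusted p = 0.000139). The value with sgEZH2-2 was 0.33 (95% interval 0.12 to 0.54), just outside the threshold (adjusted p = 0.0583), and it passed with upper-quartile scaling (adjusted p = 0.0466). The guides differed by 0.55 (SE 0.08, adjusted p = 0.00130).

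OVOL1 (chromosome 11, 65787022 to 65797219), a repressor that takes part in the exit of keratinocytes from growth, was at 7.24 and 4.76 CPM in the controls. With sgEZH2-1 it was at 9.35, 12.2 and 10.2, above all other libraries, and with sgEZH2-2 at 8.35, 6.77 and 6.56, overlapping the controls. These levels rest on 73 to 179 counts a library. OVOL1 rose by 0.83 on the log2 scale with sgEZH2-1 (SE 0.20, adjusted p = 0.0157) and was at 0.28 with sgEZH2-2 (95% interval -0.18 to 0.73). The guides differed by 0.55 (adjusted p = 0.0469). The rise lost its call without the second control (0.55, adjusted p = 0.106) and without the second sgEZH2-1 library (0.72, adjusted p = 0.0506). The difference between the guides lost its call without the second or the third library of either guide (adjusted p from 0.0707 to 0.160) and in DESeq2 (adjusted p = 0.0559). An antisense gene shares 1044 exon bases with OVOL1, and the strand setting of the counting is not given in the sources used here, so this value is uncertain.

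ZNF750 (chromosome 17, 82829435 to 82840578, minus strand), a differentiation factor that acts downstream of p63, did not follow KLF4 and GRHL3. It was at 4.12 and 4.50 CPM in the controls, 4.33, 3.69 and 3.50 with sgEZH2-1, and 5.11, 3.93 and 2.90 with sgEZH2-2. All groups overlapped. The log2 fold change was -0.17 with sgEZH2-1 (95% interval -0.68 to 0.34) and -0.11 with sgEZH2-2 (-0.62 to 0.40), so a change of the size seen for KLF4 with sgEZH2-1 lies outside both intervals. TBCD overlaps ZNF750 on the opposite strand, shares no exon bases with it and had a mean of 79.4 CPM in the controls. It was at -0.19 with sgEZH2-1 (adjusted p = 0.138 in edgeR), and its part in the ZNF750 counts was not tested.

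PRDM1 (chromosome 6, 106086320 to 106109939), which encodes the repressor BLIMP1 of the upper epidermis, was the scarcest, with 8 counts in each control. Its level was 0.568 and 0.522 CPM in the controls, 1.16, 0.753 and 1.26 with sgEZH2-1, and 1.66, 1.18 and 1.14 with sgEZH2-2. All 6 guide libraries, with 11 to 24 counts, lay above both controls. The log2 fold change was 0.94 with sgEZH2-1 (95% interval 0.08 to 1.80, adjusted p = 0.114) and 1.28 with sgEZH2-2 (0.45 to 2.11, adjusted p = 0.0641). PRDM1 was the factor with the largest fitted value for sgEZH2-2 and, like TP63 and KLF4 there, was not called. ATG5 overlaps PRDM1 on the opposite strand, shares no exon bases with it and had a mean of 47.2 CPM in the controls. It was at 0.0011 with sgEZH2-1 (adjusted p = 0.994 in edgeR), and its part in the PRDM1 counts was not tested.

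**Figure D3:**
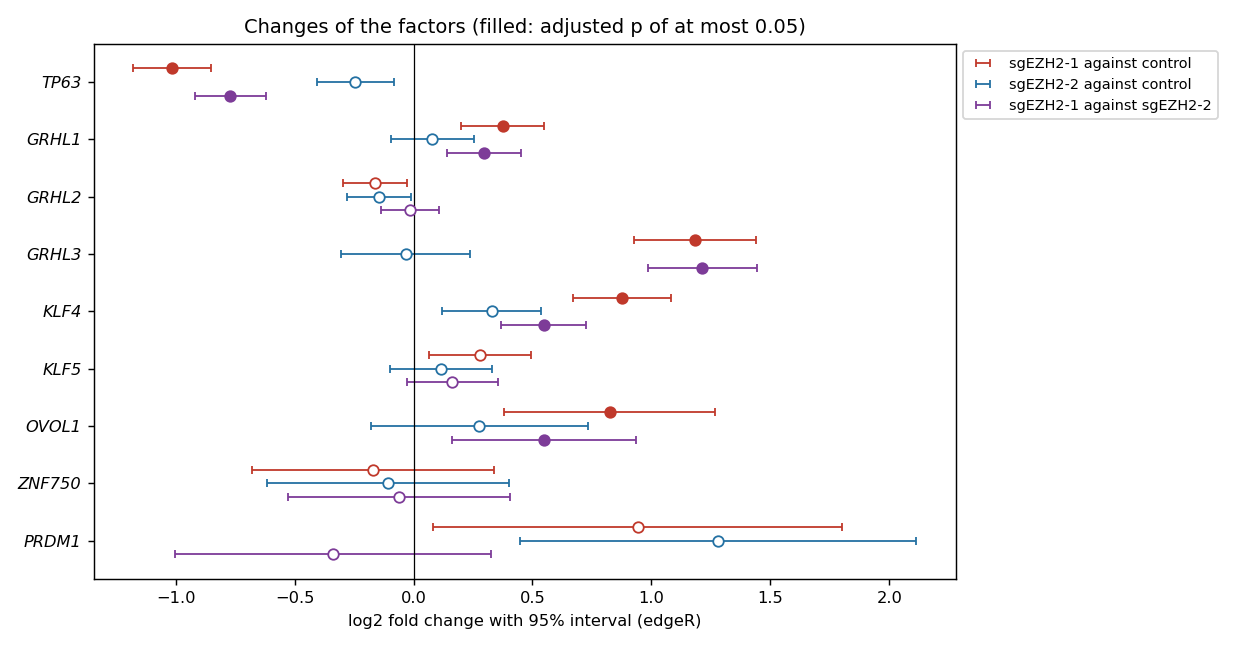
Log2 fold change (horizontal axis) with 95% interval for each of the 9 factors in 3 comparisons, with filled points for an adjusted p of at most 0.05 in edgeR. TP63 at -1.01 and GRHL3 at 1.18 are the outermost called values for sgEZH2-1, and no point is filled for sgEZH2-2.

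The guides were then compared with each other. The factors called between sgEZH2-1 and sgEZH2-2 were TP63, GRHL1, GRHL3, KLF4 and OVOL1, the same 5 as for sgEZH2-1 against control, with 4 higher and 1 lower. Over all genes tested 21.9% were called (10.4% higher, 11.5% lower). The guides did not overlap for 6 factors, with sgEZH2-1 above for 5 (21.0% of all genes) and below for 1 (21.2%). The remaining 4 had intervals that included 0. With both guides pooled against control in a fit of 2 levels, where a difference between guides counts as spread, none of the 9 was called by edgeR (4.36% of all genes were, 3.76% higher and 0.594% lower) and 4 had an unadjusted p under 0.05 (15.9% of all genes). All 6 guide libraries lay above both controls for 2 factors, KLF4 and PRDM1 (10.2% of all genes), and below for 2 (9.77%). Of these, PRDM1 passed the filter only through guide libraries. For the mean of both guides in the fit of 3 groups, TP63 (-0.63, adjusted p = 0.000172), KLF4 (0.60, adjusted p = 0.00121) and GRHL3 (0.57, adjusted p = 0.00611) were called. For this mean, 1612 of the 13124 genes tested were called. GRHL3 was at 1.18 with sgEZH2-1 and -0.03 with sgEZH2-2, so its mean does not show a rise with both guides. KLF4 alone was called in the pooled comparison by DESeq2 (adjusted p = 0.0431), and limma-voom called none.

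Basal and differentiation factors were set against each other per length. In the controls the order by RPKM was TP63 (29.6 ± 2.30, SD, n = 2), GRHL2 (26.98 ± 0.501), KLF5 (24.4 ± 4.15), GRHL1 (5.43 ± 0.138), KLF4 (5.05 ± 0.313), GRHL3 (2.39 ± 0.0633), OVOL1 (1.56 ± 0.456), ZNF750 (1.16 ± 0.0724) and PRDM1 (0.0853 ± 0.00514). Among neighbours in that order, only the ranges of GRHL2 and KLF5 overlapped. TP63 was higher per length than 87.6% of the tested genes with an annotated length, and PRDM1 than 3.03%. With sgEZH2-1 KLF5 led (29.5 ± 0.803, SD, n = 3), followed by GRHL2 (24.1 ± 1.64) and TP63 (14.6 ± 1.10). KLF4 (9.28 ± 0.432) stood above GRHL1 (7.05 ± 0.334) there, and GRHL3 followed at 5.42 ± 0.454. With sgEZH2-2 the range of TP63 (24.97 ± 1.08) overlapped those of KLF5 (26.4 ± 1.84) and GRHL2 (24.4 ± 0.185), while KLF5 lay above GRHL2. The ranges of KLF4 (6.35 ± 0.510) and GRHL1 (5.73 ± 0.424) overlapped too. The order with sgEZH2-2 depended on the length used: per kilobase of the longest transcript, TP63 (37.9 ± 1.64) stood wholly above KLF5 (28.8 ± 2.01).

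The ratio of TP63 to KLF4 within a library, which does not depend on the scaling of the library, was 5.78 and 5.92 in the controls. It was 1.81, 1.497 and 1.45 with sgEZH2-1 and 4.22, 4.07 and 3.54 with sgEZH2-2. The ratio of TP63 to GRHL3 was 11.9 and 12.8 in the controls, 3.16, 2.37 and 2.64 with sgEZH2-1, and 11.3, 11.3 and 9.60 with sgEZH2-2. TP63 stayed the higher of each pair in every library. Both ratios were lowest in the sgEZH2-1 libraries, and both were lower in each sgEZH2-2 library than in either control. For GRHL3 the gap with sgEZH2-2 was small, 11.3 against 11.9 at its nearest. How often other pairs of genes separate this way was not tested. TP63, KLF4 and GRHL3 were each called with sgEZH2-1, so the fall of their ratios there is not a separate result. The ratio of KLF5 to KLF4 was 4.43 and 5.17 in the controls and 3.37, 3.06 and 3.14 with sgEZH2-1. With sgEZH2-2 it was 4.58, 4.18 and 3.75, overlapping the controls.

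**Figure D4:**
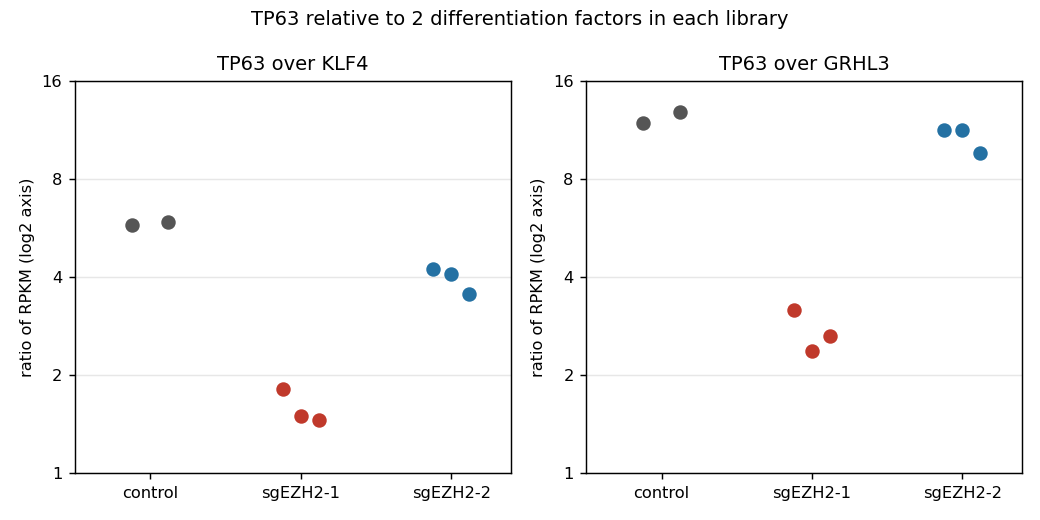
Ratio of the RPKM of TP63 to that of KLF4 (left) and of GRHL3 (right), on a log2 axis, with 1 point for each library. The sgEZH2-1 libraries lie at 1.45 to 1.81 for KLF4 and 2.37 to 3.16 for GRHL3, below all others.

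Of 30 tested genes known as targets of p63 in basal keratinocytes, 10 fell and 3 rose with sgEZH2-1, where 9.51% of all genes fell and 11.3% rose. Their median log2 fold change was -0.18, against -0.0094 over all genes. COL17A1, a hemidesmosomal collagen, was at 208 and 237 CPM in the controls and at 129 to 139 with sgEZH2-1 (log2 fold change -0.75, adjusted p = 3.26e-05), and stood at 205 to 211 with sgEZH2-2. CSTA, a protease inhibitor gene, fell by 0.87 on the log2 scale. FRAS1, a basement membrane gene, rose by 1.37 with sgEZH2-1 and by 0.71 with sgEZH2-2 (adjusted p = 0.0157 in edgeR). With sgEZH2-2, 6 of the 30 fell and 1 rose, where 2.50% of all genes fell and 6.18% rose. The median was -0.01, against 0.00091 over all genes. Among them KRT5, the basal keratin, was at -0.36 (adjusted p = 0.00727) and DSC3, a desmosomal cadherin, at -0.36 (adjusted p = 0.00819). KRT5 lost its call without the first control (adjusted p = 0.0739) and DSC3 without the second (adjusted p = 0.0714). The name of the list thus covers genes that moved in both directions.

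Of 33 epidermal differentiation genes in the table, 16 passed the filter, and with sgEZH2-1 6 rose and 1 fell (11.3% and 9.51% of all genes). The median was 0.70, against -0.0094 over all genes. Genes low in the controls enter this list only where guide libraries are higher, so its medians may lean upward. KLK5, a protease of the cornified layer, was at 4.19 and 4.24 CPM in both controls, 12.9 to 13.7 with sgEZH2-1 and 2.59 to 4.09 with sgEZH2-2 (log2 fold change 1.64 with sgEZH2-1). PI3, which encodes the protease inhibitor elafin, rose by 1.42 with sgEZH2-1 and by 1.70 with sgEZH2-2. S100A9, an alarmin gene, rose by 0.70 and 1.15, and the first of these lost its call without the second control (adjusted p = 0.0951). CALML3, a calmodulin-like gene, fell by 1.19 with sgEZH2-1. With sgEZH2-2, PI3 and S100A9 were the 2 that rose and 0 fell (6.18% and 2.50% of all genes), and the median was 0.15, against 0.00091 over all genes.

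Of 17 tested epithelial genes known as grainyhead targets, 5 rose and 2 fell with sgEZH2-1 (11.3% and 9.51% of all genes). The median was 0.04, against -0.0094 over all genes. CLDN4, a tight junction gene, had a log2 fold change of 0.47, MAL2, a trafficking gene, 0.55, ESRP2, a splicing factor gene, 0.28, and MARVELD3, a tight junction gene, 0.28. All 4 lost the call without 1 control: CLDN4 (adjusted p = 0.0597) and ESRP2 (adjusted p = 0.0608) without the second, MAL2 without the first (adjusted p = 0.0624), and MARVELD3 without either (adjusted p = 0.0590 and 0.0913) or without the second sgEZH2-1 library (adjusted p = 0.0564). With sgEZH2-2 0 rose and 1 fell (6.18% and 2.50% of all genes), with a median of 0.07. The gene that fell was CDH1, which encodes E-cadherin (-0.22, adjusted p = 0.0285). That call was lost without either control, without the second or the third sgEZH2-1 library and without any 1 of the sgEZH2-2 libraries (adjusted p from 0.0506 to 0.163).

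OVOL and grainyhead factors are known to oppose the transcription factors of epithelial-mesenchymal transition. Of 10 such factors, 5 were tested, and with sgEZH2-1 3 rose and 2 fell (11.3% and 9.51% of all genes). Their median log2 fold change was 0.66, against -0.0094 over all genes. A gene low in the controls passes the filter only where guide libraries are higher, so this median may lean upward. TCF4 rose by 2.55 on the log2 scale, starting at 0.130 and 0.284 CPM in the controls and reaching 1.08 to 1.37. With 6 counts over both controls, TCF4 passed the filter only through guide libraries, so only a rise could be seen. TWIST1 rose by 0.66 and SNAI1 by 1.05, while SNAI2 fell by 0.44. TWIST1 lost its call without the first control (adjusted p = 0.0519), and SNAI2 without the second (adjusted p = 0.0506). SNAI1 lost it without either control or without the second or the third sgEZH2-1 library (adjusted p from 0.0571 to 0.141), and in DESeq2 (adjusted p = 0.0840). With sgEZH2-2 TCF4 was at 2.30 and TWIST1 at 0.60, the 2 that rose (6.18% of all genes), and 0 fell (2.50%). TCF4 lost that call without either control or without the third sgEZH2-2 library (adjusted p from 0.0514 to 0.126), and TWIST1 without either control or any 1 of the sgEZH2-2 libraries (adjusted p from 0.0520 to 0.125) and in DESeq2 (adjusted p = 0.0674).

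Among 37 other epidermal transcription factors tested, 9 rose and 3 fell with sgEZH2-1 (11.3% and 9.51% of all genes), and 6 rose and 1 fell with sgEZH2-2 (6.18% and 2.50% of all genes). The medians were 0.09 and 0.14, against -0.0094 and 0.00091 over all genes. SATB1, a chromatin organizer of keratinocytes, was at 0.213 and 0.391 CPM in both controls, 8.96 to 10.8 with sgEZH2-1 and 6.42 to 7.09 with sgEZH2-2. It rose by 4.99 and 4.44 on the log2 scale. SATB1 had 9 counts over both controls and passed the filter only through guide libraries. SOX9, a factor of hair follicle progenitors, rose by 1.21 with sgEZH2-1, from 6.32 and 6.65 CPM to 13.0 to 17.0, and stood at 5.59 to 6.77 with sgEZH2-2. FOSL1, an AP-1 subunit, rose by 0.89 with sgEZH2-1. ID2, an inhibitor of helix-loop-helix factors, rose by 2.42 with sgEZH2-1 and by 1.38 with sgEZH2-2 (adjusted p = 0.0464 in edgeR). It had 13 counts over both controls and, like SATB1, passed the filter only through guide libraries. ID1, a relative of ID2, rose by 0.62 with sgEZH2-2.

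Of 22 tested relatives of the 9 factors by family, 4 rose and 1 fell with sgEZH2-1, where 20.8% of all genes were called (11.3% higher, 9.51% lower), a share near that of the relatives. With sgEZH2-2, 4 rose and 0 fell, where 6.18% and 2.50% of all genes did. The medians were 0.10 and 0.04, against -0.0094 and 0.00091 over all genes. TFCP2L1, of the grainyhead-like superfamily, rose by 1.34 on the log2 scale with sgEZH2-1 and by 1.23 with sgEZH2-2. KLF9 rose by 2.07 with sgEZH2-1 and 2.46 with sgEZH2-2, and KLF13 by 0.68 and 0.67.

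Genes whose levels followed a factor most closely were found by the root mean square difference of centred log2(CPM + 1) over the 8 libraries, among 8016 genes. Nearest to TP63 were CSTA (0.0911), PRXL2A (0.0915), PALMD (0.102), DOCK8 (0.109) and ACSS2 (0.109). PRXL2A was at 61.4 and 65.8 CPM in both controls, 28.3 to 33.4 with sgEZH2-1 and 53.3 to 57.8 with sgEZH2-2. Nearest to GRHL3 was the keratin gene KRT80 (0.0908), at 201 and 215 CPM in both controls, 397 to 504 with sgEZH2-1 and 203 to 217 with sgEZH2-2. ALDH1A3, a gene of retinoic acid synthesis, was nearest to KLF4 (0.0613), PIGK to GRHL1 (0.0347) and SPTLC3 to OVOL1 (0.130). All these points share the same 8 libraries in 3 groups.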

How the data were processed

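The deposited file gives unnormalized counts per gene, with a column for every library. FastQC, STAR, DESeq and the build hg38 are named, per the submitters' processing notes; for versions, counting tool, annotation and strand, the sources used here give nothing. Libraries were made with a stranded mRNA kit, per the labels' protocols. Columns name the group only, so libraries are numbered by their order in the table. Levels are CPM on library totals after TMM scaling; RPKM divides them by the union of exons in GENCODE release 29. Genes were filtered with filterByExpr (minimum count 10). The test was the two-sided quasi-likelihood F test of edgeR 4.0.16 (R 4.3.3), with Benjamini-Hochberg adjustment over 13124 genes and a threshold of 0.05. Both guides and the difference between them were contrasts of 1 fit of 3 groups. A fit of 2 levels gave the pooled comparison. Alternatives used DESeq2 1.42.0, limma 3.58.1 (voom), other scalings and filters, and each library left out. The code was tested on simulated data. The 9 factors and the gene lists were chosen with earlier results of these data known. Named genes were the 9 factors, EZH2, and from each list up to 4 genes with the smallest adjusted p for sgEZH2-1 and up to 2 for sgEZH2-2 (factors left out), plus the 5 genes nearest to TP63 and the nearest to each other called factor (mean of at least 50 counts, SD of at least 0.1). KRT8, KRT18, KRT19 and CDH5, and the overlapping genes STPG1, TBCD and ATG5, were named after their values were seen. Of the genes this rule names, 2 are not reported here.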

Additional observations from a re-analysis of the deposited data

Results flagged for a closer look

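The effects of the 2 guides differed for 5 of the 9 factors, by the direct test of the guides in edgeR, which called 21.9% of all genes. The calls of GRHL1 and OVOL1 were lost without some single libraries. The difference in log2 fold change, sgEZH2-1 minus sgEZH2-2, was -0.77 for TP63, 1.21 for GRHL3, 0.547 for KLF4, 0.548 for OVOL1 and 0.296 for GRHL1. In each of these 5 genes all 3 sgEZH2-1 libraries lay on 1 side of all 3 sgEZH2-2 libraries. Over all genes tested, 21.0% lay wholly higher and 21.2% wholly lower in that sense. The EZH2 transcript differed between the guides as well, and the part of that difference was not tested.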

How the results depend on the processing

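The calls of TP63, GRHL3 and KLF4 with sgEZH2-1, and their differences between the guides, held under every alternative run for those 2 comparisons. With single libraries left out, 1373 to 2591 genes were called with sgEZH2-1, 521 to 1365 with sgEZH2-2, 1521 to 2995 between the guides and 145 to 509 with the guides pooled. Of the 9 factors, 4 to 6 were then called with sgEZH2-1, 0 to 1 with sgEZH2-2, 3 to 5 between the guides and 0 pooled. With sgEZH2-2, 1 factor (KLF4) was called under upper-quartile scaling. With the guides pooled, 1 (KLF4) was called by DESeq2. The mean of both guides in the fit of 3 groups called 1612 genes and 3 factors, against 572 and 0 in the fit of 2 levels, where the difference between guides adds to the spread. Signs turned only for values that were never called, at most 0.28 in size in the main fit (OVOL1 with sgEZH2-2). With sgEZH2-2 these were KLF5 without the first control (-0.041; range -0.04 to 0.30), OVOL1 without the second control (-0.00026; up to 0.61), GRHL3 without the second sgEZH2-2 library (0.026; down to -0.10) and ZNF750 without the third (0.074; down to -0.32). Between the guides, GRHL2 (0.030, otherwise down to -0.068) and ZNF750 (0.000896) turned without the third sgEZH2-1 library, and ZNF750 also without the first sgEZH2-2 library (0.16, otherwise down to -0.24). With the length of the longest transcript, 9 of the 9 factors kept their place in the order of levels in the controls and with sgEZH2-1, and 5 of the 9 with sgEZH2-2, where TP63 and KLF5, and KLF4 and GRHL1, changed places. Of the 9 nearest genes, 8 were the same at a pseudocount of 0.5. Of 24 named list genes called with sgEZH2-1, 8 lost the call without some single library, as did 5 of 11 with sgEZH2-2. Depth limits PRDM1, with 8 counts in each control. No paired analysis was possible because the columns of the table carry no replicate number.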
